A study of Mus musculus with 8 samples.

Results

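Collagens, laminins, fibronectin and their close partners are the genes that encode the main scaffold of the extracellular matrix. They were taken as all protein-coding mouse genes with a collagen chain symbol (Col, a number, a, a number) or a laminin chain symbol (Lama, Lamb or Lamc and a number), together with fibronectin (Fn1), tenascin C (Tnc), both nidogens (Nid1, Nid2) and perlecan (Hspg2). This gave 60 of the 27178 genes in the deposited tables: 44 collagen genes, 11 laminin genes and 5 others, on 19 chromosomes. The choice used gene names only. By family there were 11 fibrillar collagens, 6 type IV, 6 type VI, 9 FACIT collagens (fibril-associated collagens with interrupted triple helices), 2 multiplexins, 4 transmembrane and 6 other collagens. The rest were 5 laminin alpha, 3 beta and 3 gamma chains, 3 nidogen and perlecan genes, and fibronectin with tenascin C.

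RNA sequencing covered 8 libraries of embryonic mouse cortex from a study of the long noncoding RNA Lockd, in 4 groups of 2 libraries. In the knockdown experiment, ICR embryos of wild-type genotype received a control plasmid or a plasmid for an shRNA (short hairpin RNA) against Lockd at 3 µg/µl. The plasmids were injected into the lateral ventricle and electroporated on embryonic day 14.5 (E14.5). Flow cytometry at E16.5 then collected the cells positive for GFP, the mark of plasmid uptake. The knock-in experiment used cortices of C57BL/6 wild-type or PlyA-KI embryos, taken at E13.5 without plasmid or sort and pooled. What the PlyA-KI allele carries is not given in the labels, and whether its embryos held 1 or both copies is not given either.

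As background, collagens are secreted as trimers of chains. Fibrillar collagens build the fibres of connective tissue, and type IV collagen forms a network that, joined to laminin by nidogens and perlecan, makes basement membranes. In the embryonic cortex the basement membrane lies at the pial surface, where the endfeet of radial glia attach, and around blood vessels. Cells of the meninges and the vessel wall are known to make much of this matrix, and tenascin C is a matrix glycoprotein of radial glia and other glial cells.

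The sorted libraries held 12805874 to 15911118 counts and the cortex libraries 35167646 to 47460020, so low genes were measured more precisely in cortex. Lockd itself stood at 8.9 and 7.8 CPM (the count scaled to the total of its library) in control, 4.85 and 2.83 in shRNA, 22.1 and 24 in wild type, and 0.102 and 0.0569 in PlyA-KI. Radial glia and neuron markers were detected in all 8 libraries. Markers of vessel and meningeal cells were lower in the sorted libraries than in cortex, while those of microglia were not. Summed over 12 endothelial genes they reached 5.57 to 9.61 CPM in the 4 sorted libraries against 137.5 to 167.1 in the 4 cortex libraries. Over 12 pericyte and mural cell genes the sums were 29.8 to 42.1 against 142.2 to 168 CPM, and over 14 genes of meninges and fibroblasts 16.1 to 22.6 against 137.6 to 201.2 CPM. Over 10 microglia genes they were 41.6 and 14.8 CPM in control, 31.9 and 37.2 in shRNA and 22.05 to 33.95 in cortex. In each sorted library 4 to 7 of the 14 genes of meninges and fibroblasts had no count, and Slc6a13 and Aldh1a2 had none in any of the 4. In whole tissue, fewer cells of a type and less RNA per cell cannot be told apart.

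The matrix genes took a small share of all counts, 0.0809 to 0.0893% in the sorted libraries and 0.133 to 0.186% in cortex. Levels between genes are compared here on the authors' deposited FPKM, the count scaled to the exon length of the gene and the library total. Summed over the 60 genes, FPKM was 118.4 to 131.3 in the sorted libraries, 252.2 and 268.5 in wild type, and 201.2 and 286.1 in PlyA-KI. The control cells had 19 genes at 1 FPKM or more in both libraries, the shRNA cells 20, wild type 28 and PlyA-KI 26. Between 7 and 9 of the 60 genes had no count in a sorted library and between 1 and 3 in a cortex library.

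Which genes led differed between the sorted cells and the cortex. In control cells Tnc was highest, at 29.5 and 28.5 FPKM, which is 23.3% of the summed matrix FPKM. Fn1, whose product links cells to collagen through integrins, followed at 19.65 and 17.3 FPKM, and Col9a3, a chain of the fibril-associated type IX collagen, at 12 and 10.6. Lamc1, the gamma chain of most laminins, and Col11a1, a chain of the fibrillar type XI collagen, had means of 9.23 ± 0.438 and 9.16 ± 1.35 FPKM (SD, n = 2) and did not differ beyond their spread. In wild-type cortex Fn1 led with 47.6 and 52.7 FPKM, and Col2a1, the chain of fibrillar type II collagen, came next with 23.6 and 26.5. Col4a1, a chain of the main type IV collagen of basement membranes, stood at 22.2 and 23.55 FPKM, close below Col2a1. Col3a1, the chain of the fibrillar type III collagen, was at 16.3 and 18.1 FPKM in wild type and at 12.2 and 32.1 in PlyA-KI.

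**Figure D1:**
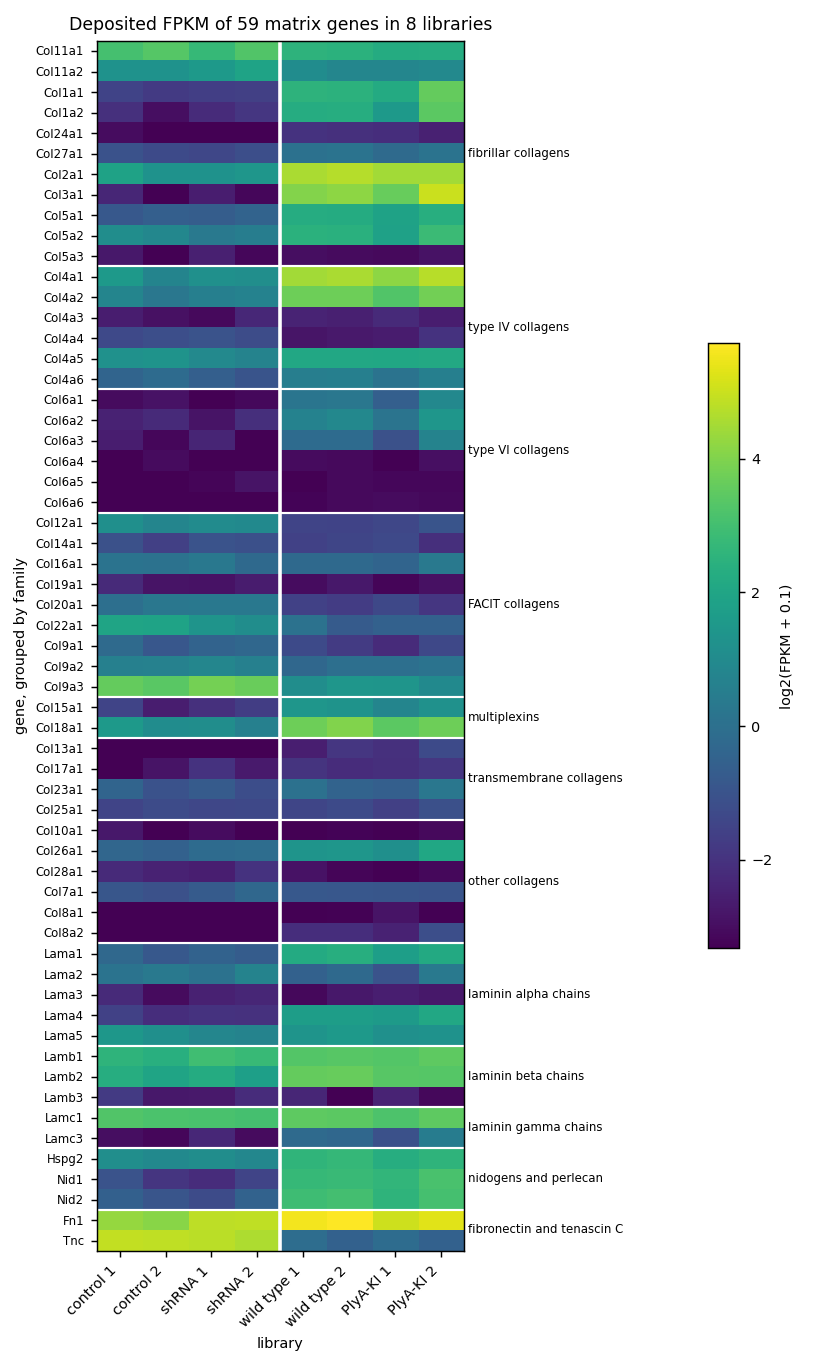
Deposited FPKM of 59 of the 60 matrix genes (rows, grouped by family) in the 8 libraries (columns), coloured as log2(FPKM + 0.1), with a white line between the sorted cells on the left and the cortex libraries on the right. Col9a3, Col12a1, Col20a1, Col22a1 and Tnc are brighter on the left, and Col1a1, Col1a2, Col3a1, Col4a1, Col4a2, Col6a1, Col6a2, Col6a3, Nid1 and Nid2 are brighter on the right.

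How far the sorted E16.5 control cells differ from E13.5 wild-type cortex was read from one fit of all 8 libraries. Strain, age, electroporation, sorting and depth all differ between these groups and cannot be told apart, so the values describe where the genes were read and not an effect of any of these. Of the 60 genes, 54 passed the filter on low counts. Of these 54, 9 were higher in control cells (16.7%), against 28.8% of all 15641 genes tested, and 30 were lower (55.6%), against 30.5% of all genes (edgeR's quasi-likelihood test, adjusted p under 0.05). The median log2 fold change was -1.21 over the 54 genes and -0.02 over all genes tested. It was also -1.21 when the 2 genes with no count in control were set at the limit that 3 counts allow.

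The median log2 fold change was -0.91 over the 6 type IV collagens and -3.97 over the nidogens and perlecan. Col4a1 had 2.88 and 1.6 FPKM in control against 22.2 and 23.55 in wild type, and its partner chain Col4a2 had 1.64 and 1.09 FPKM against 13 and 13.1. On the log2 scale Col4a1 differed by -3.38 (SE 0.23, adjusted p = 1.64e-07) and Col4a2 by -3.28 (SE 0.21, adjusted p = 1.11e-07). Nid1 and Nid2, which link laminin to type IV collagen, were at 0.4 and 0.161 FPKM and at 0.576 and 0.428 in control. In wild type they were at 6.6 and 6.91 FPKM and at 7.45 and 7.96, a difference of -4.63 (SE 0.32) and -3.97 (SE 0.27) on the log2 scale. The laminin chains split. Lama4, the alpha chain of vessel walls, had a log2 fold change of -4.19 (SE 0.29) and Lama1, an alpha chain of early basement membranes, had -3.04 (SE 0.22). Lama5, another widely used alpha chain, was at 2.69 and 2.15 FPKM in control and at 2.49 and 2.9 in wild type, so that its groups overlapped and it was not called (log2 fold change -0.17, adjusted p = 0.316). Lamc1 missed the threshold as well, with -0.26 (SE 0.12, adjusted p = 0.0671), while its less common relative Lamc3 had 3 counts in both control libraries together and 377 in wild type. That is a ratio of 39.3 of wild type to control, with an exact 95% interval of 13.4 to 192 that covers counting error only.

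Fibrillar collagens divided in the same comparison. Col3a1, which forms pliable fibres with type I collagen, had 7 and 0 counts in control and 3571 and 4787 in wild type, a log2 fold change of -8.53 (SE 0.66, adjusted p = 4.13e-07). Col1a2, a chain of type I collagen, had 9 and 2 counts against 955 and 1188 (-5.93, SE 0.73), and Col1a1, the other chain, had 15 and 13 against 1046 and 1246 (-4.69, SE 0.47). No library of one group reached a library of the other for any of these genes. Col2a1 was lower too, at 3.61 and 2.33 FPKM in control (-3.10, SE 0.16). Col11a1, which co-polymerises with type II collagen in cartilage, went the other way, with 8.2 and 10.1 FPKM in control and 5.71 and 5.4 in wild type (0.70, SE 0.17, adjusted p = 0.00272). The FPKM ratio of Col11a1 to Col2a1 was therefore 2.27 to 4.33 in the 4 sorted libraries and 0.204 to 0.242 in the 4 cortex libraries. Of the 6 type VI collagens, which form beaded microfibrils around cells, 3 were tested. Col6a2 and Col6a3 had log2 fold changes of -4.05 (SE 0.58) and -4.41 (SE 0.88), and Col6a1 had 3 counts in control and 372 in wild type, a ratio of 38.8 with a counting interval of 13.2 to 189.

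The FACIT collagens, which sit on the surface of collagen fibrils, had the opposite sign to most other families. All 9 had a positive log2 fold change, except that Col14a1 had -0.14 without control 1, and 6 of the 9 were called higher, against 28.8% of all genes tested, with a family median of 1.27. Col12a1, which is found along type I fibrils, was at 2.18 and 1.62 FPKM in control and 0.264 and 0.257 in wild type (2.85, SE 0.22, adjusted p = 3.9e-07). Col22a1, known from tissue junctions such as that of muscle and tendon, was at 3.84 and 3.69 FPKM against 0.95 and 0.499 (2.37, SE 0.25). Col9a3 was at 12 and 10.6 FPKM against 2.06 and 2.58 (2.26, SE 0.18), and Col20a1 had 2.17 (SE 0.34). In each of these 4 genes both control libraries lay above both wild-type libraries. The calls of Col9a1 (1.27, SE 0.48) and Col9a2 (0.84, SE 0.27) each depended on single libraries, with adjusted p of 0.254 without control 1 and 0.195 without wild type 2 for Col9a1, and of 0.0609 without control 2 and 0.124 without wild type 1 for Col9a2. Type IX collagen is assembled from the products of Col9a1, Col9a2 and Col9a3, and their ratio differed between the experiments. Col9a3 was 7.2 to 8.62 times as high as Col9a2 in FPKM in the sorted libraries and 1.88 to 2.93 times in cortex. The gene span of Col9a3 (chr2:180598102-180622192, GRCm38) shares 237 bases with the protein-coding gene Tcfl5, and the strand setting of the counting is not given, so reads from those bases cannot be assigned.

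Tnc (chr4:63959785-64047015) showed the largest positive difference of the 54 genes. It had 2686 and 2909 counts in control and 237 and 202 in wild type, on log2 scale a difference of 5.31 (SE 0.17, adjusted p = 9.66e-10). Its span shares 62285 bases with that of the long noncoding RNA gene 8030451A03Rik. Summed radial glia markers came to 1182 and 1137 CPM in control cells, against 2494 and 2559 in wild type. Oligodendrocyte precursor markers came to 48.3 and 52.8 against 11.1 and 10.7 CPM. Of these 5 precursor markers 3 had a positive and 2 a negative log2 fold change. The largest values in control were those of Olig1 (21.9 and 22.8 against 0 and 0.126 CPM) and Olig2 (18.4 and 21.6 against 1.5 and 1.05). The part of either cell type in the Tnc difference was not tested. Fn1 (chr1:71585473-71653280), the other large glycoprotein, was lower in control cells, with a log2 fold change of -1.46 (SE 0.13, adjusted p = 9.5e-07), so the FPKM ratio of Fn1 to Tnc was 0.607 to 1.18 in the sorted libraries and 40.1 to 87.9 in cortex.

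Among the remaining collagens, Col15a1 and Col18a1, the multiplexins of basement membrane zones, had log2 fold changes of -3.97 (SE 0.39) and -2.61 (SE 0.20), and Hspg2, the proteoglycan perlecan, had -1.66 (SE 0.14). Col4a4, a chain of the minor type IV network, was above wild type by 2.71 (SE 0.49, adjusted p = 0.000407), from 30 and 39 counts in control and 13 and 20 in wild type. Col8a2 and Col13a1 had no count in any of the 4 sorted libraries, against 48 and 31 counts in wild type. On a limit of 3 counts over the control group, wild type was at least 5.01-fold and at least 3.23-fold higher. Col17a1 and Col24a1 rested on 3 and 2 control counts, with ratios of 6.78 (counting interval 2.22 to 33.7) and 13.8 (3.7 to 115). Some of these calls depended on single libraries: that of Col8a2 was lost without either control library, that of Col13a1 also without wild type 2, and that of Col17a1 without control 1 or wild type 1. The 12 endothelial markers were all called lower in control cells with a median log2 fold change of -5.01. Of 12 pericyte markers 9 were called lower and 1 higher (median -2.50), and of 14 meningeal and fibroblast markers 11 were called lower (median -4.12). Dcn and Lum of the last list had no count in control against 418 to 639 in wild type. The part of these cells in the lower matrix values was not tested.

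**Figure D2:**
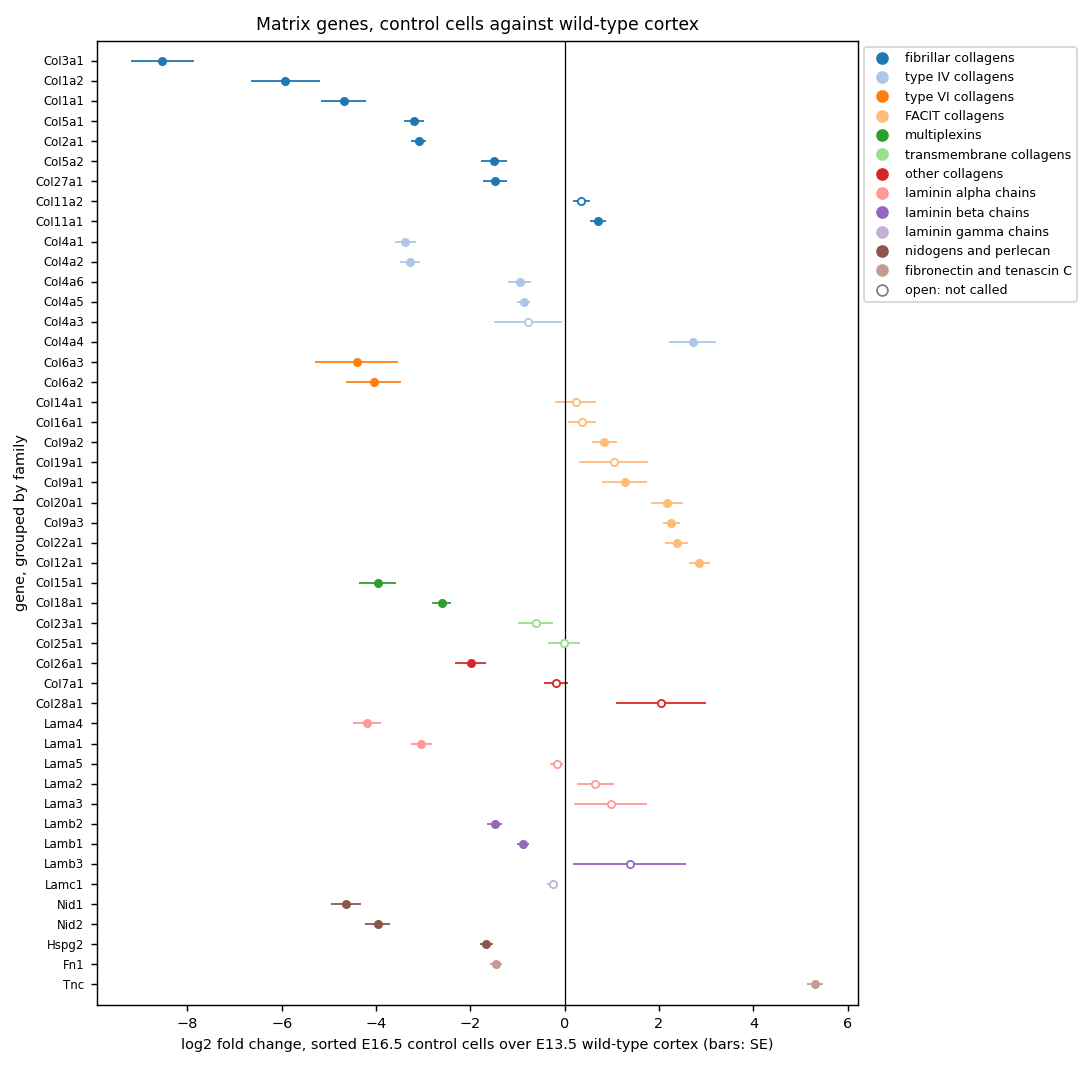
Log2 fold change of sorted E16.5 control cells over E13.5 wild-type cortex (x axis) with its standard error (bars) for 47 tested matrix genes with more than 3 control counts, grouped and coloured by family; filled points passed an adjusted p of 0.05 and open points did not. The FACIT collagens and Tnc lie to the right of 0, and Col3a1, at -8.53, and Col1a2, at -5.93, lie farthest to the left.

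The windows upstream of 3 genes at the ends of that range are shown to let the reader compare them: Col3a1 and Col1a2, far lower in control cells, and Tnc, far higher. They are the 250 bases before an annotated start in RefSeq (GRCm38.p6). The windows are chr1:45311288-45311537 on the plus strand for Col3a1, chr6:4505368-4505617 on the plus strand for Col1a2 and chr4:64047016-64047265 on the minus strand for Tnc. Tnc has a further listed window, chr4:64046937-64047186, which is not shown. It overlaps the shown one, and its GC box and TATA box are the same matches. Capitals mark matches to the CCAAT box (letters CCAAT), the GC box (GGGCGG) and the TATA box (TATAAA), each searched on both strands.
Col3a1: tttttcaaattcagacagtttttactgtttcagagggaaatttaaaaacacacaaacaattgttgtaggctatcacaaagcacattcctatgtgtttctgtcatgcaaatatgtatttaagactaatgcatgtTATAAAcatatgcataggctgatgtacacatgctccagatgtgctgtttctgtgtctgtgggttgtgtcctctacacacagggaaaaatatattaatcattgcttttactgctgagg
Col1a2: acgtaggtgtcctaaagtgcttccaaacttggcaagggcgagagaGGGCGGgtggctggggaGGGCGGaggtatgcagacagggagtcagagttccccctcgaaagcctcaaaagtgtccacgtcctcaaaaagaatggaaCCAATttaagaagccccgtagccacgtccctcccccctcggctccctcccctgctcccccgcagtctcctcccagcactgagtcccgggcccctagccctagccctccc
Tnc: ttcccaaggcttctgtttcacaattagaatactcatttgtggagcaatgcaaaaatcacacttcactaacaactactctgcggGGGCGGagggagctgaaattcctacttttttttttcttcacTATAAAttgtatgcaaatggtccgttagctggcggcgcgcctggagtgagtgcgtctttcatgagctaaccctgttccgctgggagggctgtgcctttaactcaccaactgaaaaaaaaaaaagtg
The Col3a1 window held 1 TATA box, that of Col1a2 held 1 CCAAT box and 2 GC boxes, and that of Tnc held 1 GC box and 1 TATA box. The marked matches do not overlap each other. Of the 60 genes 43 had a promoter entry. The CCAAT box was found in 14 of these 43 windows (32.6%) and in 34.5% of all 27025 windows of the same length. The GC box was found in 26 (60.5%) against 32.9%, and the TATA box in 6 (14%) against 13%. These counts describe letters anywhere in the 250 bases, at any distance from the start, and no binding was measured.

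Whether the Lockd shRNA changed matrix genes was asked in the sorted cells. None of the 40 matrix genes that passed the filter was called by edgeR (0%), as was none of all 13758 genes tested (0%). DESeq2 called 1 of them, Fn1, and 49 genes in the whole table. At an unadjusted p under 0.05 stood 7 of the 40 (17.5%), against 7.51% of all genes. The 2 shRNA libraries lay above both control libraries in 7 of the 40 genes (17.5%), near the 15% of all genes, and below both in 7 (17.5%), near the 19.8% of all genes. The median log2 fold change was -0.02 over the 40 genes and -0.00 over all genes.

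Fn1 had the smallest p of the matrix genes. It stood at 19.65 and 17.3 FPKM in control and at 28 and 28.7 in shRNA, from 2092 and 2066 against 3116 and 3794 counts. Both shRNA libraries were above both controls and the replicates lay close together. The log2 fold change was 0.63 (SE 0.13, unadjusted p = 0.000292, adjusted p = 0.167 in edgeR), place 22 by p among 13758 genes. DESeq2 gave the same 0.63 with an adjusted p of 0.0115. Over 12 alternative settings the log2 fold change was 0.56 to 0.72, the adjusted p 0.00339 to 0.541, and 5 settings called it.

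Laminins and collagens with an unadjusted p under 0.05 had values in both directions, and none was called. Lamb1, the beta chain of the commonest laminins, was at 5.87 and 5.08 FPKM in control and at 7.53 and 6.73 in shRNA (log2 fold change 0.40, SE 0.17, adjusted p = 0.578). Its FPKM ratio to Lamb2, the later beta chain, was 1.21 and 1.33 in control and 1.63 and 2.03 in shRNA. Lama5 was at 2.69 and 2.15 FPKM against 1.68 and 1.57 (-0.56, SE 0.18, adjusted p = 0.357). In both chains the groups did not overlap, Lamb1 with higher and Lama5 with lower shRNA values. Lamc1 had 9.54 and 8.92 FPKM against 8.59 and 8.15, a log2 fold change of -0.12 (SE 0.14).

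Col22a1 was the collagen with the smallest p. It was at 3.84 and 3.69 FPKM in control and at 2.46 and 2.07 in shRNA (-0.72, SE 0.19, adjusted p = 0.254). Col5a2, a chain of type V collagen that helps to start fibrils, was at 2.08 and 1.73 FPKM against 1.16 and 1.33 (-0.59, SE 0.22, adjusted p = 0.507). Col4a5, a type IV chain, was at 2.27 and 2.42 FPKM against 1.79 and 1.55 (-0.48, SE 0.20, adjusted p = 0.591). These 3 had both shRNA libraries below both controls. Col11a2, another chain of type XI collagen, had 2.37 and 2.36 FPKM in control and 2.8 and 3.71 in shRNA (0.48, SE 0.20), and Col7a1, the chain of anchoring fibrils, had 0.59 (SE 0.31). The most abundant matrix gene, Tnc, was at 29.5 and 28.5 FPKM in control and at 27.7 and 24.2 in shRNA, a log2 fold change of -0.15 (SE 0.13, adjusted p = 0.946). Col3a1 and the type VI and VIII collagens had 13 counts or fewer in every sorted library and did not pass the filter, so a difference in them was not detectable at this depth. Of the tested genes, Nid1, with 31 and 14 against 10 and 25 counts, and Col23a1, a transmembrane collagen with 48 and 31 against 38 and 31 counts, had overlapping groups and log2 fold changes of -0.50 and -0.29. Both turned positive without control 1, to 0.28 and 0.15.

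Cell type markers differed between the same libraries. Summed markers of cycling cells were at 1447 and 1588 CPM in control and at 1000 and 888.3 in shRNA. Neuron markers were at 5606 and 6016 against 6814 and 6928 CPM, and radial glia markers at 1182 and 1137 against 1027 and 912.9. Intermediate progenitor markers were at 1572 and 1735 against 1348 and 1088 CPM, and oligodendrocyte precursor markers at 48.3 and 52.8 against 36.3 and 22.1. The 6 markers of the former and the 4 tested of the latter all had negative log2 fold changes, with medians of -0.51 and -0.79, and microglia markers had a median of 0.36. All 10 cycling markers had a negative log2 fold change, with a median of -0.69. EdgeR called 0 of them, all 10 had an unadjusted p under 0.05, and DESeq2 called 6. Such a p was also found in 5 of the 6 intermediate progenitor markers, of which neither tool called any. The share over all genes was 7.51%. Endothelial markers summed to 5.57 to 9.61 CPM in all 4 libraries. The part of these cell types in the values of Fn1, Lama5, Lamb1 and Col22a1 was not tested.

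**Figure D3:**
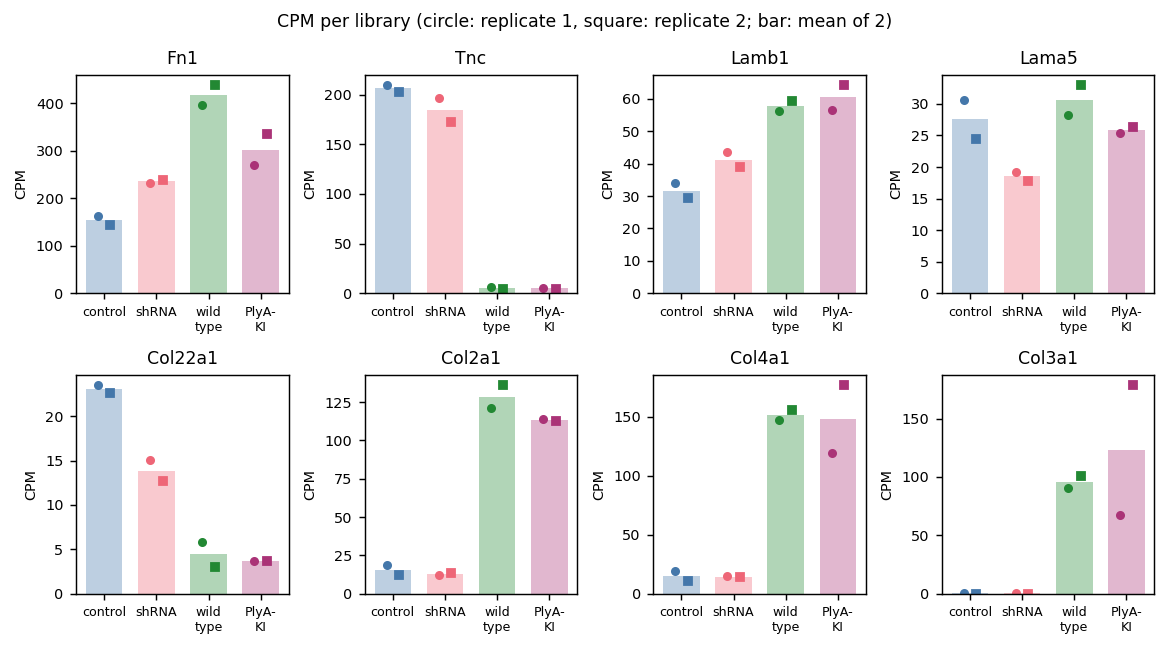
CPM of 8 matrix genes (panels) in each of the 8 libraries, with circles for replicate 1, squares for replicate 2 and bars for the mean of 2 libraries, on axes that start at 0. Fn1 is higher in both shRNA than in both control libraries and lower in both PlyA-KI than in both wild-type libraries, Tnc is high in the sorted cells only, and the 2 PlyA-KI libraries lie far apart for Col3a1.

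The second comparison asked what differs in PlyA-KI cortex. In the knock-in experiment 53 matrix genes were tested and none was called, higher or lower, by edgeR, against 0.0455% of all 15398 genes called higher and 0.00649% called lower. DESeq2 called 1 matrix gene, again Fn1, and 116 genes in the whole table. At an unadjusted p under 0.05 stood 9 of the 53 (17%), against 12.5% of all genes, all 9 lower in PlyA-KI. Both PlyA-KI libraries lay above both wild-type libraries in 4 of the 53 (7.55%), against 23.7% of all genes, and below both in 12 (22.6%), near the 20% of all genes. The median log2 fold change was -0.03 over the 53 genes and 0.01 over all genes.

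Fn1 again had the smallest p of the matrix genes. It was at 47.6 and 52.7 FPKM in wild type and at 32.5 and 40.2 in PlyA-KI, a log2 fold change of -0.47 (SE 0.11, unadjusted p = 0.00114, adjusted p = 0.206 in edgeR), place 85 among 15398 genes. The groups did not overlap, although the PlyA-KI libraries lay farther apart than the wild-type ones. DESeq2 gave -0.47 with an adjusted p of 0.00737. Over 12 alternative settings the value was -0.65 to -0.32 and 5 settings called it, with adjusted p from 7.75e-35 to 0.589. Neuron markers summed to 4025 and 3314 CPM in wild type and to 5072 and 4135 in PlyA-KI, and all 10 had a positive log2 fold change (median 0.33, 0 called by edgeR with 6 at an unadjusted p under 0.05, and 3 called by DESeq2). Radial glia markers summed to 2494 and 2559 against 2198 and 2354 CPM, with 9 of 10 negative (median -0.13, 0 called by edgeR with 4 at an unadjusted p under 0.05, and 1 called by DESeq2). Their part in the values of Fn1 and the genes that follow was not tested.

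The other 8 genes at an unadjusted p under 0.05 included laminin chains, perlecan and collagens. Lamb2 was at 11.95 and 12.1 FPKM in wild type and at 10.2 and 10.1 in PlyA-KI (-0.26, SE 0.08, adjusted p = 0.27), Lama1 at 4.54 and 4.98 against 3.22 and 4.37 (-0.34, SE 0.14), and Hspg2 at 6.02 and 6.46 against 4.83 and 5.78 (-0.25, SE 0.10). Col18a1 was at 13.2 and 16.1 FPKM against 10.7 and 13.1 (-0.31, SE 0.12, adjusted p = 0.338) and Lama5 had -0.26 (SE 0.11). Among the others were Col11a1 (-0.26, SE 0.09) and Col2a1 (-0.19, SE 0.08). In each of these genes both PlyA-KI libraries were lower than both wild-type libraries. Among the 4 genes with higher PlyA-KI libraries, Col4a4 had 13 and 20 against 19 and 42 counts (1.13, SE 0.57, adjusted p = 0.445) and Col12a1 0.264 and 0.257 against 0.279 and 0.415 FPKM (0.40, SE 0.26).

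The 2 PlyA-KI libraries differed from each other in many matrix genes. In 18 of the 53 tested genes (34%) PlyA-KI 2 had at least 1.5 times the CPM of PlyA-KI 1, against 6.04% of all genes tested. In wild type the second library was that much above the first in 3 of the 53 (5.66%), near the 4.84% of all genes. The 3 tested type VI collagens were 2.56 to 4.15 times as high in PlyA-KI 2 as in PlyA-KI 1, against 1.01 to 1.18 times between the wild-type libraries. Col1a2 was at 2.89 FPKM in PlyA-KI 1 and 10.8 in PlyA-KI 2, a CPM ratio of 3.76, Col1a1 at 4.56 and 12 (2.62), and Col3a1 at 12.2 and 32.1 (2.63). The wild-type libraries, at 4.72 and 4.87 FPKM for Col1a2, lay between the PlyA-KI values. Lamc3 (3.49), Lama2, the alpha chain of muscle and nerve basement membranes (2.97), and Col5a2 (2.02) had the same order of libraries, while Lamb1 (1.13) and Lamb2 (0.992) were closer to even. Fn1, at a ratio of 1.24, nidogens and perlecan, at 1.2 to 1.43, and Col4a1 and Col4a2, at 1.48 and 1.46, lay between. Some genes had the reverse order, such as Col14a1 (0.441), Col20a1 (0.594) and, from 14 and 2 counts, Lamb3 (0.16).

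Cell type markers differed between the same 2 libraries. Of 14 markers of meninges and fibroblasts 10 were at least 1.5 times as high in PlyA-KI 2, with a median ratio of 1.93, and their sum was 137.6 CPM in PlyA-KI 1 and 201.2 in PlyA-KI 2, against 143.9 and 158.5 in wild type. None of the 14 was at 0 in any cortex library. Endothelial markers had a median ratio of 1.21 (1 of 12 at least 1.5 times as high), pericyte markers 1.2 (3 of 12) and radial glia markers 1.08 (0 of 10). Erythroid genes summed to 434.7 and 627.2 CPM in PlyA-KI, against 344.8 and 382.9 in wild type. The part of these cells in the matrix values was not tested.

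The comparison turned with the PlyA-KI library that was left out. Without PlyA-KI 2, the log2 fold change was -0.52 for Col3a1, -1.10 for Col6a3, -1.01 for Lamc3 and -0.42 for Nid2. In the same fit Col4a1 had -0.36, Col4a2 -0.48 and Fn1 -0.65. Without PlyA-KI 1, it was 1.09 for Col1a1, 1.18 for Col1a2, 0.90 for Col3a1, 0.97 for Col6a3 and 0.79 for Lama2. Between these 2 fits 33 of the 53 genes (62.3%) changed sign, against 33.3% of the 15672 genes in both fits. When a wild-type library was left out instead, 11 of 53 (20.8%) did, against 28.9% of genes. Col8a2, a chain of type VIII collagen, had 0.73 with both libraries, 1.44 without PlyA-KI 1 and -0.65 without PlyA-KI 2. Fn1, Lamb2, Lama1, Lama5, Hspg2, Col18a1, Col11a1 and Col2a1 were negative with each of the 4 libraries left out in turn, from -0.11 to -0.65. In each of them both PlyA-KI libraries lay below both wild-type libraries. The kept sign follows from that order and is no further support.

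**Figure D4:**
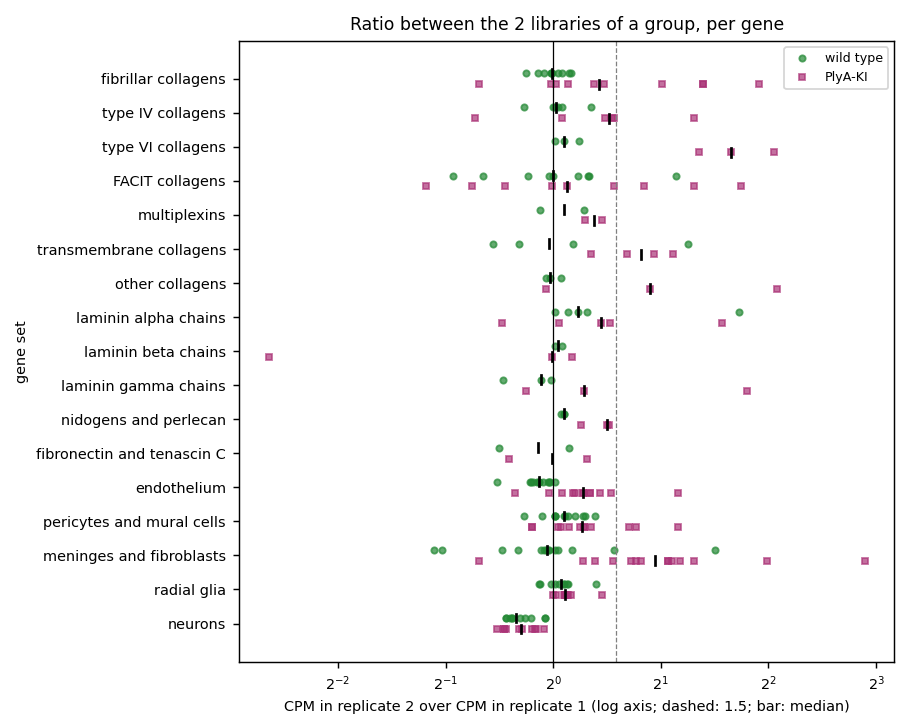
CPM in replicate 2 over CPM in replicate 1 (log axis) for each gene of the matrix families and of 5 cell type marker lists in wild type (circles) and PlyA-KI (squares), with the set median as a bar, a solid line at 1 and a dashed line at 1.5. The PlyA-KI points of the 3 type VI collagens, at 2.56 to 4.15, lie to the right of the wild-type points. Those of the meninges and fibroblast markers overlap them, with a median of 1.93 against 0.961, while the laminin beta chains and radial glia have medians near 1.

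Whether a matrix gene responded differently in the 2 experiments was tested as an interaction, the response to the shRNA minus the difference of PlyA-KI from wild type. No matrix gene was called out of 54 (0%), against 0.0128% of the 15641 genes tested (edgeR). At an unadjusted p under 0.05 stood 4 of the 54 (7.41%), near the 7.04% of all genes. Fn1 had a difference of 1.11 on the log2 scale (SE 0.17, unadjusted p = 2.84e-05, adjusted p = 0.0889), place 5 by p of 15641 genes. Its own log2 fold change was 0.63 after the shRNA and -0.47 in PlyA-KI, in experiments without a shared library. With the replicate number as a block its adjusted p was 0.00125, and with DESeq2 size factors 0.0786. Among the others were Col4a5 (-0.45, SE 0.20) and Col11a2 (0.57, SE 0.26), each with an adjusted p of 0.709.

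**Figure D5:**
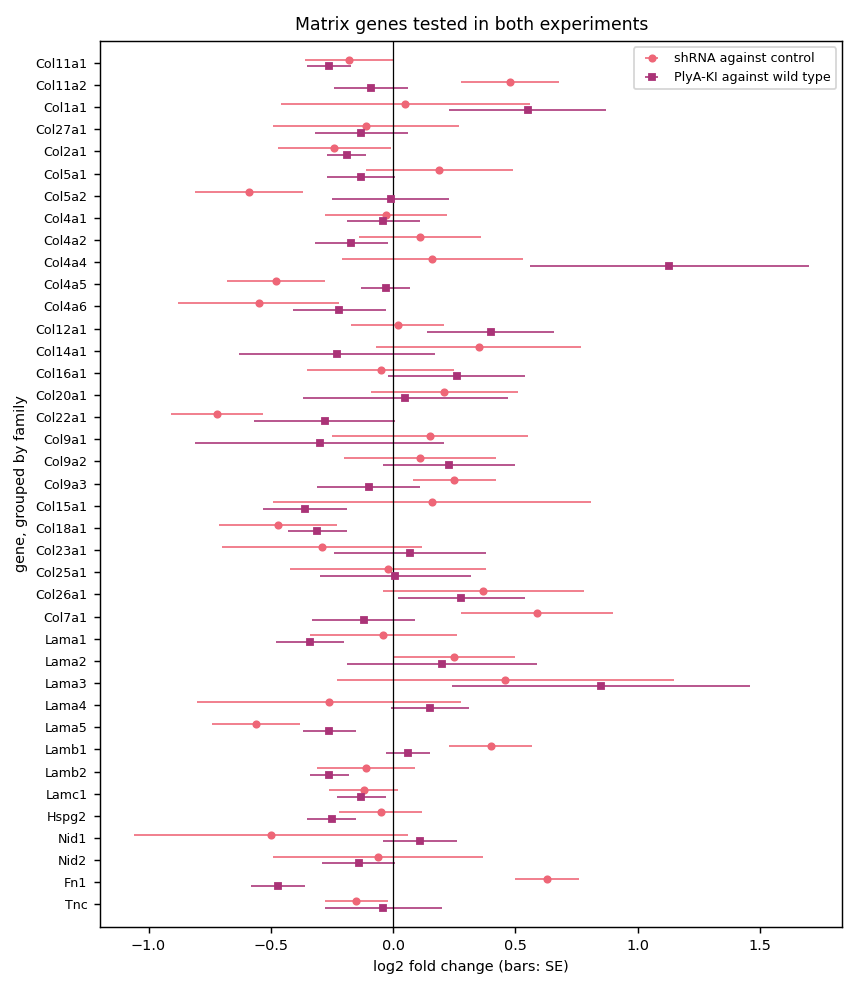
Log2 fold change (x axis) with its standard error (bars) of 39 matrix genes tested in both experiments, for shRNA against control (circles) and PlyA-KI against wild type (squares), with a line at 0. The Fn1 points lie apart, at 0.63 and -0.47, and the knockdown bars of Lamb2 and Hspg2 cross 0.

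Chains that assemble together kept their ratio in some cases. Col4a1 and Col4a2 lie head to head on chromosome 8, with spans that share 85 bases, and their products form the main type IV collagen. Col4a1 was 1.4 to 1.92 times as high as Col4a2 in FPKM in all 8 libraries, although the level of either gene differed several-fold between sorted cells and cortex. Col4a5 and Col4a6, head to head on the X chromosome 1274 bases apart, had a ratio of 3 to 4.05 in all 8. Col4a3 and Col4a4, the third such pair, share 114 bases on chromosome 1 and had at most 37 and 42 counts in a library. Col1a1 was 1.1 to 1.58 times Col1a2 in the cortex libraries, while the sorted libraries had 2 to 17 counts of either. Lama1 and Lama5 are both alpha chains and not such a pair. Lama1 was 1.44 to 1.88 times Lama5 in cortex and 0.214 to 0.363 times in sorted cells. Read assignment where spans overlap is uncertain, as 32 of the 60 genes overlap another annotated gene and 7 overlap a protein-coding one.

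The genes around the matrix were read from 4 further lists. Of the matrix receptors, integrins and others that bind collagen, laminin and fibronectin, 21 of 26 were tested for the shRNA and 25 for PlyA-KI, and edgeR and DESeq2 called none in either. At an unadjusted p under 0.05 stood 0 and 4 of them, against 7.51% and 12.5% of all genes, the shares beside which the counts of the next 3 lists are also to be read. DESeq2 gave no adjusted p to 2 to 14 low genes of each of the 4 lists, so it could not call these. For the shRNA they were 12 of the 21 tested receptors and 9 of the 28 tested genes of collagen biosynthesis. In the other lists they were 7 of 18 tested proteases and inhibitors and 14 of 31 other matrix proteins. Itga6, an integrin chain that binds laminin, was at 103 and 108 CPM in wild type and at 79.2 and 93.2 in PlyA-KI (-0.30, SE 0.10, adjusted p = 0.279), and Dag1, which encodes dystroglycan, a laminin receptor, had -0.23 (SE 0.08). In the knockdown the smallest p was that of Itga1, a collagen receptor chain (-0.82, SE 0.47). Of the 33 genes of collagen biosynthesis 28 and 33 were tested and none was called by either tool, with 2 and 3 at an unadjusted p under 0.05. Loxl1, a cross-linking oxidase, was at 39.2 and 44.4 CPM in control and at 30.8 and 29.2 in shRNA (-0.47, SE 0.16, adjusted p = 0.442), and Sec24d, a coat protein of the vesicles that carry procollagen, had 0.32 (SE 0.11) in the knock-in.

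Of 21 matrix proteases and inhibitors 18 and 21 were tested, with none called by edgeR in either, 2 and 4 at an unadjusted p under 0.05 and, by DESeq2, 0 for the shRNA and 1 for PlyA-KI. Adamts20, a secreted metalloprotease, was at 44.1 and 40.1 CPM in wild type and at 31.8 and 29 in PlyA-KI (-0.48, SE 0.10, adjusted p = 0.172 in edgeR). Adamts18, a relative, was at 16.2 and 16.6 CPM in control and at 24.4 and 20.7 in shRNA (0.47, SE 0.18). Of 46 other matrix proteins 31 and 42 were tested, with none called by either tool and 5 and 9 at an unadjusted p under 0.05. Mfap4, a microfibril protein, was at 143 and 134 CPM in control and at 96.4 and 93.6 in shRNA (-0.53, SE 0.13, adjusted p = 0.214), and Tnr, the tenascin of the nervous system, at 3.98 and 2.51 against 8.51 and 5.72 (1.15, SE 0.33, adjusted p = 0.265). Thbs1, a matricellular glycoprotein, was at 17.5 and 14.3 CPM in wild type and at 22 and 21.4 in PlyA-KI (0.44, SE 0.12, adjusted p = 0.27). The medians of the 4 lists lay between -0.18 and -0.03 for the shRNA and between -0.06 and 0.08 for PlyA-KI, beside -0.00 and 0.01 over all genes. Between control cells and wild-type cortex Adamts2, which trims the ends of fibrillar procollagens, was at 30.8 and 21.7 CPM against 0.356 and 0.169. Its log2 fold change of 6.64 (SE 0.36) was opposite in sign to the fibrillar collagens of types I and III. Tll1 and Lox of the same list had -7.51 (SE 1.93) and -5.99 (SE 1.16), from 0 and 0 and from 0 and 1 control counts. Of the 33 biosynthesis genes edgeR called 13 higher and 14 lower, with a median of -0.23. Over all genes it called 28.8% higher and 30.5% lower.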

How the data were processed

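The reads went through bcl2fastq, Trimmomatic, HISAT2 and featureCounts on mm10, per the submitters' processing notes. Versions, annotation and strand setting were not stated. Per the labels' protocols, RNA was extracted with TRIzol and mRNA libraries were made with a KAPA kit. The authors deposited raw counts per gene and library, and beside each an FPKM value, the count over gene length and library total. The deposited FPKM implied a whole gene length (tolerance 0.001) for 100% of values.

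Genes are listed by Entrez identifier. RefSeq (GRCm38.p6) named 25274 of the 27178. CPM is the count scaled to the library total. Each experiment had its own edgeR fit (edgeR 4.0.16, R 4.3.3, filterByExpr, TMM, quasi-likelihood F-test, two-sided, Benjamini-Hochberg adjustment over all genes, threshold 0.05). Control against wild type and the interaction came from one fit of 8 libraries. These share libraries with the comparisons within each experiment. The standard error is the absolute log2 fold change over the square root of F. The steps were tested on counts simulated from the mean profile of all libraries with a fixed spread. Such counts do not show how the steps perform on these libraries. Alternatives were DESeq2 1.42.0 (Wald test), DESeq2 size factors in edgeR, no filter, a minimum of 1 CPM in 2 libraries, a minimum absolute log2 fold change of 1, limma-trend (limma 3.58.1) on log2(FPKM + 0.1) and log2(FPKM + 1), one fit of 8 libraries, the replicate number as a block, and each library left out.

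The genes, lists, tests and naming rule were chosen with earlier results of these data known. Named are, in each family, the 2 genes with the highest FPKM and the 1 with the smallest p within an experiment, up to 12 called genes per direction between the experiments, and in each list 3 by p. Lama2, Col11a2 and other genes that the rule did not pick were named after their values were seen. The genes for the promoter windows were chosen in the same way. The named type VI to VIII collagens, Lamc3, Col5a2 and Col2a1 were picked by the rule. Some of their values are given for comparisons for which it did not pick them, after the values were seen. Limits of 3 counts equal 0.189 to 0.234 CPM in sorted and 0.0632 to 0.0853 in cortex libraries. Intervals are exact binomial ones at 95% and, like these limits, cover counting error only. Replicates differed by more than sampling noise, with a chi-square per gene of 11.7 to 24. The sources used here give neither litters nor the number of embryos pooled. The p-values therefore reflect the spread among these libraries alone. Protein sequences were not used here. The values of 1 matrix gene are not reported here, although it was part of every fit and count.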

Additional observations from a re-analysis of the deposited data

Results flagged for a closer look

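Fn1 had both shRNA libraries above both controls and both PlyA-KI libraries below both wild-type libraries. The difference between the 2 responses was 1.11 on the log2 scale (0.63 in the knockdown, -0.47 in the knock-in). In edgeR's interaction test it had an adjusted p of 0.0889 and so missed the threshold.

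Col7a1, the chain of anchoring fibrils, had the same pattern, with a difference of 0.72 on the log2 scale (0.59 and -0.12, adjusted p = 0.728 in edgeR), which does not pass. Such opposite, separated groups were found in 2 of 40 matrix genes tested in both experiments (5%) and in 6.11% of the 13526 genes tested in both.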

How the results depend on the processing

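The difference between control cells and wild-type cortex was stable in number, with 34 to 40 matrix genes called under all alternatives run; over all genes a minimum absolute log2 fold change of 1 left 4472 of 9269 calls. Within experiments calls moved. For the knockdown, 1 matrix gene (Fn1) was called with the replicate block, with no filter on low counts and with DESeq2, and 0 to 1 with a library left out; over all genes these gave 163, 184, 49 and 18 to 133 calls, and one fit of 8 libraries 53. For the knock-in, matrix calls were 13 with the replicate block, 5 with no filter, 1 with DESeq2 and 0 to 14 with a library left out; over all genes 2193, 484, 116 and 48 to 565, with 5 for limma-trend on log2(FPKM + 1) and 4 for one fit of 8 libraries, beside 8 as reported. The interaction with the block called 1 matrix gene (Fn1, 1.12) and 61 genes.

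Same-numbered libraries deviated together only weakly, with correlations of 0.101 and 0.0934 over 15641 genes and 2 pairs each, so the numbers are not shown to pair libraries. The block leaves 1 residual degree of freedom in a fit of 4 libraries.

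With a library left out, Col23a1 ranged from -0.62 to 0.15 and Nid1 from -1.15 to 0.28 in the knockdown, and Col6a3 from -1.10 to 0.97 and Col8a2 from -0.65 to 1.44 in the knock-in; Col6a3 was also -0.01 with limma-trend on log2(FPKM + 0.1). The cause was not tested. A fit without a library assumes that the lone sample varies like the other group. Single genes were followed under alternatives only where the naming rule picked them for that comparison. Of these values, 856 kept direction and side of the threshold, 55 came to pass it, 5 no longer passed and 5 changed sign. Sign changes and lost calls of other genes, such as Col3a1, Col8a2 between the experiments and Col17a1, are not in these counts. With 2 libraries per group and 12805874 to 15911118 counts, Col3a1 and the type VI and VIII collagens did not pass the filter in the knockdown fit.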
